A study of Homo sapiens with 6 samples.

Results

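The ATF4 axis was read through 10 genes with 19 probe sets, which were followed in HT29 cells, a human colon adenocarcinoma line, with and without NS398, a selective cyclooxygenase-2 inhibitor. The genes are ATF3, ATF4, ATF5, DDIT3, TRIB3, CHAC1, ASNS, PPP1R15A, CEBPB and CEBPG, and their probe sets are all those of the HG-U133 Plus 2.0 array whose annotation names 1 of the 10 genes and no other. They are 19 of 54675 probe sets, and 10 of the 19775 genes that have a probe set of their own. The samples were 3 cultures labelled NS398, which the methods describe as kept for 72 h in serum-free medium with 100 µM of the drug, and 3 labelled control, for which the methods name 0.1% DMSO as vehicle. All 6 come from 1 cell line at 1 time and 1 dose, and each was hybridised to 1 array.

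Cells that run short of amino acids or accumulate misfolded protein phosphorylate the translation factor eIF2, which lowers protein synthesis in general while the ATF4 mRNA is translated better. ATF4 is a bZIP transcription factor, a protein that grips DNA as a dimer through a basic region and a leucine zipper. It pairs with C/EBP proteins, activates genes of amino acid supply and redox balance, and also activates its own brakes. In colon carcinoma cells as in other cells this programme, called the integrated stress response, is read from the mRNA of its targets, since much of the control of ATF4 itself lies in translation.

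Signals were deposited on a linear scale and share a trimmed mean of 500 in every array, with array medians between 65 and 80.2. Arrays of the same group correlated at 0.961 to 0.983 and arrays of different groups at 0.931 to 0.952 (Pearson's r over probe sets brighter than 7 in mean log2), and no array stood apart from its group. Of 12 epithelial markers, the summed signal was 168472 to 173860 in the NS398 arrays and 136933 to 154395 in the control arrays. KRT20 (1.15), CLDN7 (0.80), GPA33 (1.58) and LGALS4 (0.38) of them were called higher and VIL1 (-0.71) lower, as log2 differences NS398 minus control by the test described next, and their part in the results was not tested. Of all genes, 5.23% were called higher and 4.85% lower. The summed signals of 9 leukocyte, 10 fibroblast and 8 endothelial markers stayed at or under 1242 in every array, and among these only LUM, a matrix proteoglycan gene, was called. In RNA of whole cultures a change in the number of expressing cells and a change in RNA per cell cannot be told apart, and since the labels do not say how the cultures were divided, the p-values speak only for the spread among the 6 samples.

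Signals of a group are given as the geometric mean of its 3 arrays, and differences as log2 values, NS398 minus control, with the standard error (SE) that the fit gave. A probe set is said to have risen or fallen where limma with a variance trend gave a Benjamini-Hochberg adjusted p under 0.05 over all 54675 probe sets. This fit also used robust estimation. The fit named below as without the variance trend left out both, and the part of each was not tested. Directions follow the deposited treatment labels. For CEBPB, for a probe set of ATF3 and for the target gene VEGFA (1.36 here, limma adjusted p = 5.62e-05) the direction in the study's text or supplement is the opposite one. Other genes were not compared, TRIB3, CHAC1 and ASNS among them, so how far this reaches is not known. The study's methods also describe another processing than these values show. Whether its contrast or the labels are turned round, or only single genes differ, cannot be told apart here. Every direction below is therefore that of the arrays labelled NS398 against those labelled control.

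Of the 19 probe sets, 10 rose and 1 fell in the NS398 arrays, against 3.26% of all probe sets that rose and 3.17% that fell. Their median difference was 1.10, and that of all probe sets was 0.06. The groups did not overlap in 13 of the 19, against 24.1% of all probe sets. Read from the brightest probe set of each gene, ATF4, CEBPB, CEBPG, DDIT3, TRIB3, CHAC1 and ASNS rose, 7 of 10 genes, against 5.23% of all genes that rose and 4.85% that fell. ATF3, ATF5 and PPP1R15A did not pass by their brightest probe set. Limma without the variance trend called only CHAC1 of the 10 genes, where it called 0.0439% of all probe sets (24), and 13 of the 19 probe sets had an unadjusted p under 0.05 in that test.

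**Figure D1:**
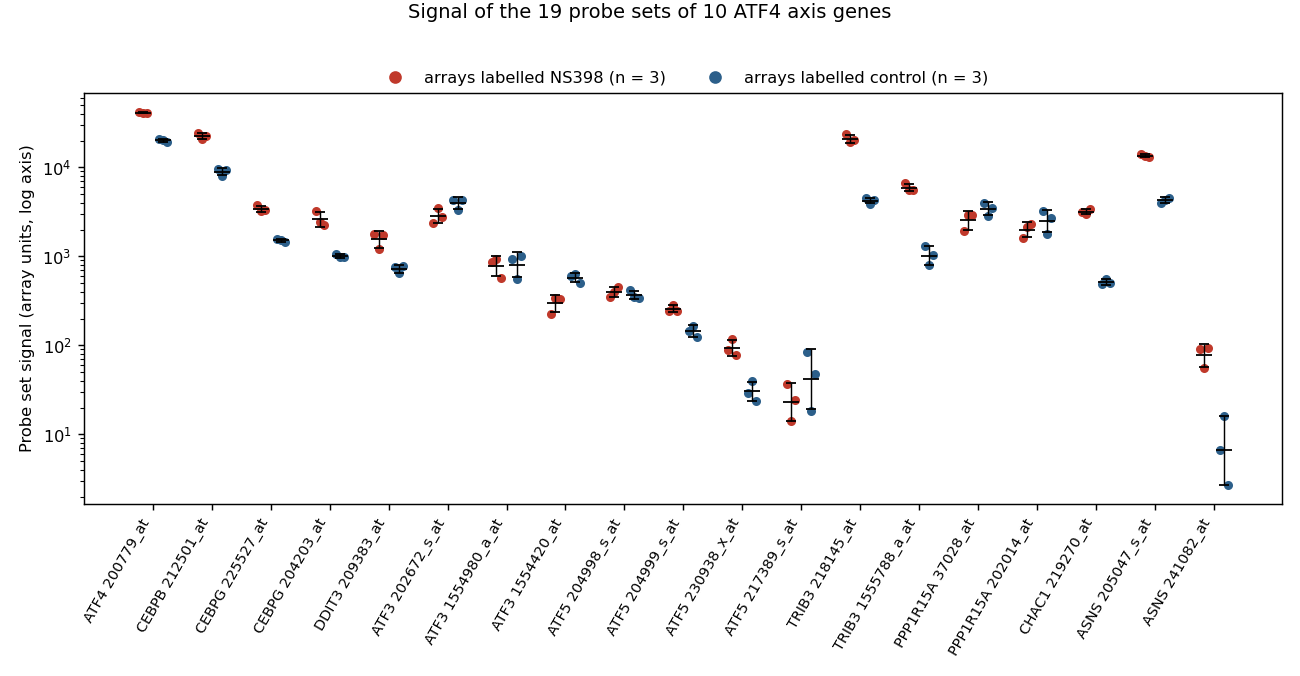
Signal of each of the 19 probe sets in the 3 arrays labelled NS398 (red, left) and the 3 labelled control (blue, right), on a log axis, with the geometric mean and 1 SD of the log2 signal as black bars. ATF4 lies between 40492 and 41874 in NS398 arrays and between 19065 and 20865 in control arrays, while the groups overlap for both PPP1R15A probe sets, and heights of different probe sets are not comparable.

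Where a gene has several probe sets, they are told apart by brightness, and the plots carry their names. ATF4, the factor at the centre of the axis, has 1 probe set. Its signal was 41874, 41219.5 and 40492 in the NS398 arrays, against 20865, 20235 and 19065 in the control arrays. The arrays of a group lay close together and the groups were far apart. The difference was 1.04 ± 0.08 (SE, n = 3 each), a rise of 2.06-fold (limma adjusted p = 3.06e-05, or adjusted p = 0.0897 without the variance trend). This probe set ranked between the 99.3rd and the 99.7th percentile of its array in all 6 arrays, and whether signals so near the top of the scale are compressed was not tested.

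CEBPB encodes C/EBP beta, a bZIP protein that dimerises with ATF4 and takes part in inflammatory and stress transcription. Its signal was 24203, 20691.5 and 22539 in the NS398 arrays, against 9697, 7992.5 and 9328 in the control arrays. Every NS398 array was above every control array, and the difference was 1.32 ± 0.10 (SE, n = 3 each, limma adjusted p = 4.14e-05, or adjusted p = 0.0897 without the variance trend).

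CEBPG encodes C/EBP gamma, a short family member that has no strong activation domain of its own and forms heterodimers with ATF4. By its brighter probe set the signal was 3765, 3234 and 3343 in the NS398 arrays, against 1562, 1526 and 1449 in the control arrays. By the dimmer one it was 3268, 2420.1 and 2240.2 in the NS398 arrays, against 1061, 973 and 980.2 in the control arrays. Both rose without overlap, by 1.19 ± 0.11 and 1.38 ± 0.15 (SE, n = 3 each, limma adjusted p = 1.48e-04 and 3.87e-04), and these 2 estimates differed by 0.19. For 13 such pairs of probe sets of 1 gene an exact permutation test of the array ratios was run (two-sided), which with 3 against 3 arrays cannot go below p = 0.1 or, adjusted over the pairs, 0.26 here, so it shows neither a difference nor agreement (p = 0.3 for CEBPG).

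DDIT3 encodes CHOP, a C/EBP relative that ATF4 induces and that favours cell death when stress lasts. Its signal was 1794, 1209 and 1723.5 in the NS398 arrays, against 761, 648 and 774 in the control arrays. NS398 replicate 2 was the lowest of its group and still above every control array. The difference was 1.10 ± 0.17 (SE, n = 3 each, limma adjusted p = 0.00294, or adjusted p = 0.139 without the variance trend).

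ATF3, a bZIP factor that ATF4 induces and that can repress stress genes in turn, gave differences below 0 by each of its 3 probe sets. The brightest had 2388, 3465.5 and 2748 in the NS398 arrays, against 4291, 3339 and 4351 in the control arrays. The groups overlapped through NS398 replicate 2 and control replicate 2, and the difference of -0.49 ± 0.15 (SE, n = 3 each) did not pass (limma adjusted p = 0.0957, 95% interval -0.82 to -0.15). The dimmest probe set had 227, 342 and 333 in the NS398 arrays, against 600.2, 629.7 and 504 in the control arrays. It fell without overlap (-0.96 ± 0.21, limma adjusted p = 0.0178), and missed the threshold without NS398 replicate 1 (adjusted p = 0.0681) or without control replicate 2 (adjusted p = 0.0633). For the middle one the signal ran between 573 and 941 in the NS398 arrays and between 553 and 1018 in the control arrays, and its interval of -0.61 to 0.49 holds both a decrease and an increase.

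ATF5, the closest relative of ATF4 and likewise under translational control, has 4 probe sets, and 0 of them passed. The brightest had 353, 396 and 450.5 in the NS398 arrays, against 418, 354 and 344 in the control arrays, which overlap, and the difference was 0.10 ± 0.18 (SE, limma adjusted p = 0.831, 95% interval -0.30 to 0.51). The second brightest had 245, 285 and 246.5 in the NS398 arrays, against 147, 166 and 123 in the control arrays. Here the groups did not overlap, and the difference of 0.84 ± 0.23 just missed the threshold (limma adjusted p = 0.0594), which it passed with array weights (adjusted p = 0.0335) and where the test was limited to probe sets brighter than 4 or than 7 in mean log2 (adjusted p = 0.0415 and 0.0243). The next, a dim one, had 78.7 to 119 in the NS398 arrays and 24.0 to 39.6 in the control arrays (1.63 ± 0.48, limma adjusted p = 0.0709, or 0.0447 with array weights). The dimmest had 14.0 to 37.2 in the NS398 arrays and 18.1 to 83.8 in the control arrays, with overlap and a wide interval (limma 95% interval -2.54 to 0.86). So the probe sets of this gene did not give 1 answer. The ratio of the brightest to the second brightest was lower in every NS398 array than in any control array, by 0.74 on the log2 scale (exact permutation p = 0.1, the smallest that 3 against 3 arrays allow, adjusted p = 0.26).

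**Figure D2:**
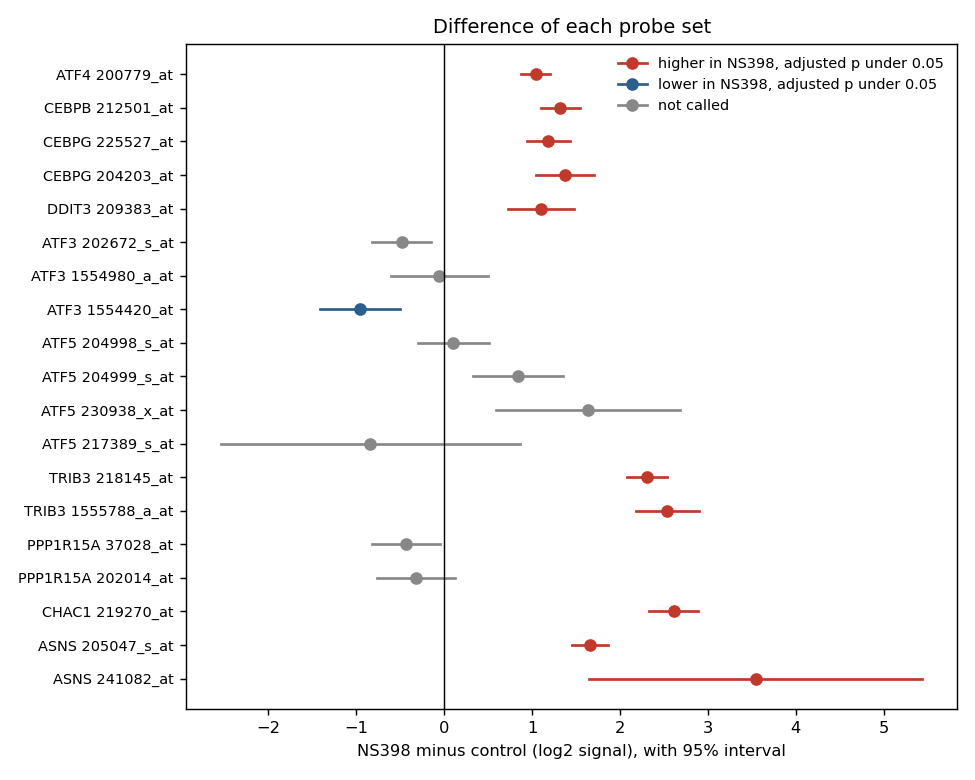
NS398 minus control difference in log2 signal of each probe set (point) with its 95% interval (line), red where it rose, blue where it fell and grey where it did not pass an adjusted p of 0.05. The probe sets of TRIB3, CHAC1 and CEBPG lie to the right of 0 with short intervals, those of PPP1R15A lie to the left at -0.44 and -0.32, and the dim ASNS probe set has the widest interval among those that rose, 1.65 to 5.44.

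TRIB3 encodes a pseudokinase that ATF4 and CHOP induce and that binds ATF4 and restrains it, so it serves as a brake. Its brighter probe set had 23499, 19132 and 20232 in the NS398 arrays, against 4475, 3909.6 and 4266 in the control arrays. It rose by 2.31 ± 0.10 (SE, n = 3 each), a rise of 4.96-fold (limma adjusted p = 1.92e-06, or adjusted p = 0.0543 without the variance trend). The dimmer one had 6607, 5633 and 5582 in the NS398 arrays, against 1293, 803 and 1025 in the control arrays. It rose by 2.54 ± 0.16 (limma adjusted p = 1.41e-05), and the 2 estimates differed by 0.23.

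PPP1R15A encodes GADD34, the subunit that directs protein phosphatase 1 to eIF2 and so lets translation resume, the other brake of the axis. The brighter probe set had 1926, 2939.8 and 2907 in the NS398 arrays, against 4012, 2872 and 3537 in the control arrays. The dimmer had 1615, 2157 and 2289 in the NS398 arrays, against 3205, 1807 and 2688 in the control arrays. The groups overlapped in both, NS398 replicate 1 was the lowest array in both, and neither passed. The differences were -0.44 ± 0.18 and -0.32 ± 0.20 (SE, limma adjusted p = 0.206 and 0.452), with upper 95% limits of -0.05 and 0.12, so a rise of the size seen for TRIB3 lies outside both intervals. Single arrays set much of their size: the brighter was -0.24 without NS398 replicate 1, and the dimmer -0.17 without NS398 replicate 1, -0.14 without control replicate 1 and -0.55 without control replicate 2.

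CHAC1 encodes a cyclotransferase that breaks down glutathione, and ATF4 and CHOP are known to induce it. Its signal was 3132, 2987 and 3377 in the NS398 arrays, against 487, 563 and 504 in the control arrays. Each group was tight and the gap between them was wide. The difference of 2.61 ± 0.13 (SE, n = 3 each), or 6.11-fold, was the highest among the brightest probe sets of the 10 genes, and this gene also passed without the variance trend (limma adjusted p = 2.54e-06 with it and 0.0396 without).

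ASNS encodes asparagine synthetase, the enzyme that makes asparagine from aspartate and glutamine and the classic target by which the amino acid response was worked out. Its bright probe set had 14259.5, 13325.5 and 13079 in the NS398 arrays, against 3977.5, 4334 and 4583.5 in the control arrays. It rose by 1.66 ± 0.09 (SE, n = 3 each), or 3.16-fold (limma adjusted p = 5.89e-06, or adjusted p = 0.0691 without the variance trend). The dim one had 90.1, 55.3 and 92.8 in the NS398 arrays, against 6.6, 16.3 and 2.7 in the control arrays. Its difference of 3.55 ± 0.86 passed (adjusted p = 0.0323), but the control signals are near the bottom of the scale, and with 32 added to every signal the difference was 1.45. It missed the threshold without any 1 of the arrays other than control replicate 2 (adjusted p = 0.0514 to 0.139) and with the replicate number as a block (adjusted p = 0.0624).

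Promoters of such genes can hold the known binding letters of these factors. The windows of all 10 genes in the RefSeq promoter table (build GRCh38.p14, 250 bases before to 50 after each start site, 20 windows) were therefore searched on both strands for 2 motifs. The first is the C/EBP-ATF response element (CARE), TGATGNAAN, which a dimer of ATF4 and a C/EBP protein can bind. The second is the cAMP response element (CRE), TGACGTCA, which reads the same on both strands. No window of the table holds the 2 motifs in overlap. A CARE stood in a window of CHAC1, ASNS, CEBPG and ATF3, 4 of 10 genes, and a CRE in that of PPP1R15A. Of all 27305 genes listed there, 4.45% have a window with a CARE and 2.25% one with a CRE (3.61% and 1.85% of 35116 windows). The 10 genes have more windows per gene (20 for 10) than all genes (35116 for 27305), so the shares by gene are not like for like. The windows that hold a match are shown 5′ to 3′ on the strand of the gene, with the matched letters in capitals. They set 3 genes that rose, with a CARE in a window, beside ATF3, which has one in its upstream window and did not rise. Which start sites these cells use was not tested.
CHAC1 promoter, chr15:40953221-40953520, plus strand: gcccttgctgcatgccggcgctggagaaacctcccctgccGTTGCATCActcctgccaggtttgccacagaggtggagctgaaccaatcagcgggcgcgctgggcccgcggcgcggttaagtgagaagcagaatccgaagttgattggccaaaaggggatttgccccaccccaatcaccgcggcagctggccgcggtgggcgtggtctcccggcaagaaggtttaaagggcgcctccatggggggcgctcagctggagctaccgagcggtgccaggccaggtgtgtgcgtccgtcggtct
ASNS promoter, chr7:97872359-97872658, minus strand: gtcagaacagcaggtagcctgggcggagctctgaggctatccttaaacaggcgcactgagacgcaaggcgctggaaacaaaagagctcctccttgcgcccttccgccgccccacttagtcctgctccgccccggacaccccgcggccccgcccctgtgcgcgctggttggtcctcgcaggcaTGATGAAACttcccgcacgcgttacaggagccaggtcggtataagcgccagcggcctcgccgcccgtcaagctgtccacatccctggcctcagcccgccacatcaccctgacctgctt
CEBPG promoter, chr19:33373863-33374162, plus strand: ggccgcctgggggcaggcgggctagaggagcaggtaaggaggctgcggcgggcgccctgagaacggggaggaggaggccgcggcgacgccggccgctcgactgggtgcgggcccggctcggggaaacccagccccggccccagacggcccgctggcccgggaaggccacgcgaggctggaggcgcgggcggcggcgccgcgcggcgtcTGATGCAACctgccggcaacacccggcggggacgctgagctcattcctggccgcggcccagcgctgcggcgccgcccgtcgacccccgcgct
ATF3 promoter, chr1:212565157-212565456, plus strand: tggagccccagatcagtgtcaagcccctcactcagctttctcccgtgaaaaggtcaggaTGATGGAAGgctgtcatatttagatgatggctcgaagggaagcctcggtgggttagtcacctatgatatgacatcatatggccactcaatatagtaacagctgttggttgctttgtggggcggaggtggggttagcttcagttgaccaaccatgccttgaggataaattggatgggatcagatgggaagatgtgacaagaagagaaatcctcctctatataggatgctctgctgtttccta
PPP1R15A promoter, chr19:48872171-48872470, plus strand: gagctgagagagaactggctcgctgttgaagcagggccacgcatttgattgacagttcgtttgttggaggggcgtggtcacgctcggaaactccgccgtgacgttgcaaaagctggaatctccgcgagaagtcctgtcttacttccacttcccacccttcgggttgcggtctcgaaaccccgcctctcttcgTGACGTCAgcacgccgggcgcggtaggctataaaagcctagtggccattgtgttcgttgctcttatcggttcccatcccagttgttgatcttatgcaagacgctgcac

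In CHAC1 the match lies 210 to 202 bases before the start site and on the opposite strand, so that it reads TGATGCAAC there. In ASNS it is TGATGAAAC at 68 to 60 bases before the start site, in CEBPG TGATGCAAC at 42 to 34 bases before the second of its start sites in the table, and in ATF3 TGATGGAAG at 191 to 183 bases before the upstream one of its start sites. The CRE of PPP1R15A lies 58 to 51 bases before the start site. Of the 4 genes with a CARE in a window, CHAC1 (2.61), ASNS (1.66) and CEBPG (1.19) rose and ATF3 (-0.49) did not pass, and of the 6 without one ATF4, CEBPB, DDIT3 and TRIB3 rose. A match is a description of these letters in these windows only.

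Within an array the scaling of signals cancels when a gene is set against ATF4, so the log2 ratio of each of the other 9 genes to ATF4 was compared between groups, where every gene stood by its brightest probe set. The ratio was higher in every NS398 array than in every control array for CHAC1 (by 1.57), TRIB3 (1.27), ASNS (0.62), CEBPB (0.28) and CEBPG (0.15). For DDIT3 the arrays overlapped and the shift was 0.06 (exact permutation p = 0.8, two-sided). It was lower in every NS398 array for ATF5 (-0.94), PPP1R15A (-1.48) and ATF3 (-1.52). Because ATF4 itself rose by 1.04, a gene that did not change would also have a lower ratio. ATF5 differed by only 0.10 by its brightest probe set, so its lower ratio mostly restates the rise of ATF4. Each of the 8 ratios without overlap had an exact permutation p = 0.1, the smallest possible with 3 against 3 arrays, so none can pass a threshold of 0.05 (adjusted p = 0.1125 over the 9 ratios). The share of all genes whose ratio to ATF4 does not overlap was not computed, so 8 of 9 has no background to be read against.

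**Figure D3:**
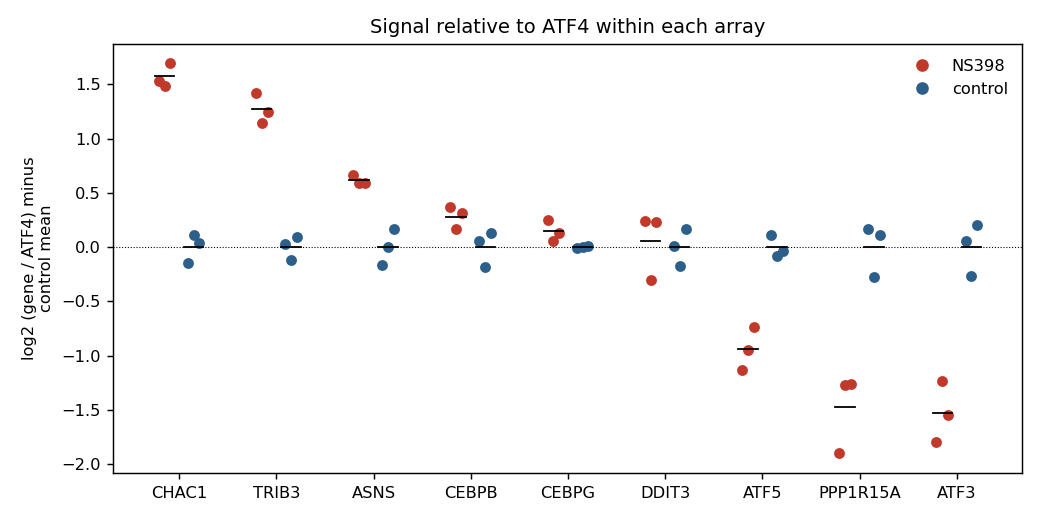
Log2 ratio of each gene to ATF4 in each array, minus the mean ratio of the control arrays (points, red for NS398 on the left and blue for control on the right, black bars for group means). The NS398 arrays of CHAC1 and TRIB3 sit 1.57 and 1.27 above the control mean, those of DDIT3 straddle it, and those of PPP1R15A and ATF3 sit 1.48 and 1.52 below it.

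Genes that ATF4 is known to serve were read from 4 lists, to be set against the 5.23% of all genes that rose and the 4.85% that fell. The lists were chosen with earlier results of these data known, so their counts are not independent support. Their genes are bright, with list medians of the mean log2 signal of 10.97 to 13.09. Array medians over all probe sets were 6.02 to 6.33. The shares of all genes, here, for the 10 genes and for the other lists, were not matched for signal. Of 12 measured cytosolic tRNA synthetases, the enzymes that load tRNA with amino acids, 12 rose, with a median difference of 0.98, where the median of all genes was 0.06. SARS1 had a signal of 16249 in NS398 and 6151 in control arrays (1.40 ± 0.09, SE, limma adjusted p = 1.08e-05), WARS1 rose by 1.59, IARS1 by 1.25 and EPRS1 by 1.25. Of 10 amino acid transporters 9 rose and 0 fell (median 1.06). The neutral amino acid carrier SLC1A4 rose by 1.64, the cystine carrier SLC7A11 by 1.20, its partner chain SLC3A2 by 1.31 and the cationic carrier SLC7A1 by 0.91. Of 11 genes of amino acid and one-carbon synthesis 8 rose and 0 fell (median 0.85). PSAT1, an enzyme of serine synthesis, had a signal of 16999 in NS398 and 5245 in control arrays (1.70 ± 0.11), mitochondrial MTHFD2 rose by 1.41, the cysteine-making CTH by 3.10 and the serine pathway entry PHGDH by 0.97.

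Stress effectors of ATF4 and CHOP gave the highest median of these lists, 1.44, with 12 of 16 that rose and 0 that fell, beside the same 5.23% and 4.85% of all genes. NIBAN1, a stress-induced protein that affects translation, had a signal of 2337 in NS398 and 156 in control arrays (3.91 ± 0.18, SE, limma adjusted p = 1.92e-06). The tRNA exporter XPOT rose by 1.83, the translation repressor EIF4EBP1 by 1.69 and SESN2, which restrains mTORC1, by 1.52. A further list of 18 genes holds the sensor ERN1 (IRE1) and chaperones and degradation factors of the endoplasmic reticulum, which answer mainly to ERN1 and to ATF6. Of these 18 genes, ERN1 included, 7 rose and 0 fell, against 5.23% and 4.85% of all genes, with a median of 0.22. ERN1 itself rose by 1.51, the cochaperone DNAJB9 by 1.21, SEL1L by 0.91 and SEC61B by 0.58.

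Upstream of ATF4, of 21 genes for eIF2 and its kinases, its phosphatase and its exchange factor eIF2B, 4 rose and 1 fell (5.23% and 4.85% of all genes), with a median of 0.15. EIF2AK4, the kinase GCN2 that senses uncharged tRNA, rose by 0.72, the eIF2 beta subunit EIF2S2 by 0.69, EIF2B3 by 0.64 and the mitochondrial protease OMA1 by 0.72. The phosphatase subunit PPP1CA, the partner of GADD34, fell by 0.45 (limma adjusted p = 0.0275). Among 5 family relatives of the members that are not bZIP factors, 0 passed, and the differences lay between 0.07 and 0.68. TRIB1, a relative of TRIB3, had a signal of 15885 in NS398 and 13651 in control arrays (0.22 ± 0.10, adjusted p = 0.264), and PPP1R15B, the constitutive counterpart of PPP1R15A, had a difference of 0.15 ± 0.10 (adjusted p = 0.485).

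Of 41 other bZIP factors 8 rose and 3 fell, against 5.23% and 4.85% of all genes, and the median was 0.07. CEBPD rose by 0.78, XBP1, a factor of the unfolded protein response, by 0.61, CEBPA by 1.42 and JDP2, a repressor related to ATF3, by 0.89. The 3 that fell were FOS (-1.03), JUN (-0.60) and CREB3L4 (-0.81). FOS, an immediate early gene, had 6225, 10281 and 8415 in the NS398 arrays, against 18002, 15996 and 15965.5 in the control arrays. NS398 replicate 1 was the lowest array for FOS, for JUN and for both PPP1R15A probe sets, as it was for 2 of the 3 ATF3 probe sets.

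**Figure D4:**
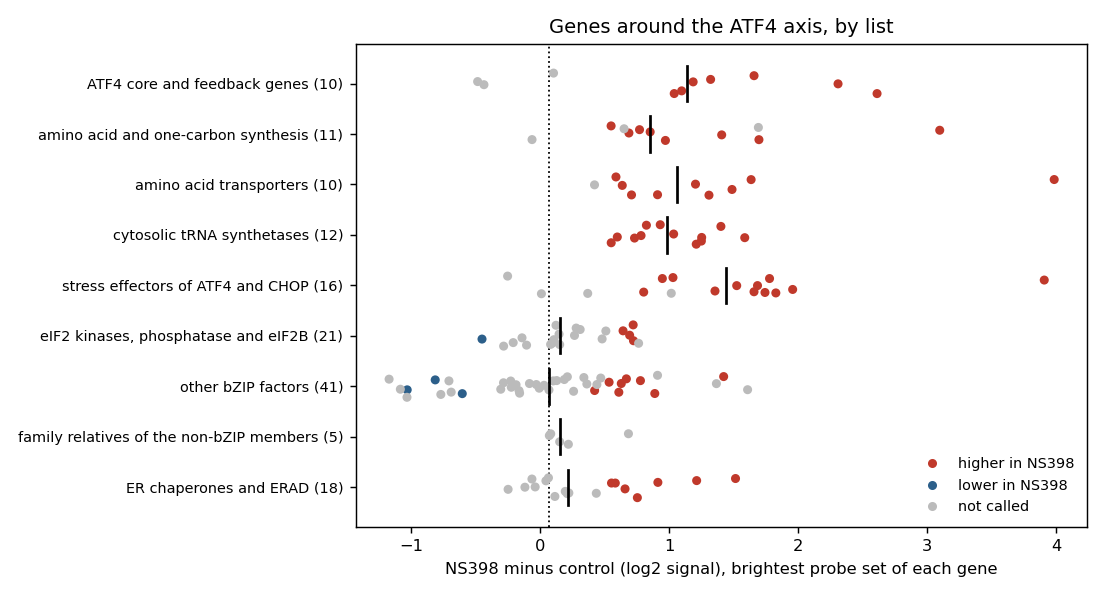
NS398 minus control difference in log2 signal of each gene by its brightest probe set, grouped by list, with the number of measured genes in brackets, the list median as a black bar and the median of all genes (0.06) as a dotted line. Red points rose, blue points fell and grey points did not pass an adjusted p of 0.05. The 4 lists of ATF4 targets have medians between 0.85 and 1.44. Medians are 0.22 for the endoplasmic reticulum list, 0.15 for eIF2 genes, 0.15 for family relatives and 0.07 for other bZIP factors.

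Some measures of the arrays moved with the groups as well. The 3′ over 5′ ratio of the ACTB control probe sets, which goes up as RNA degrades, was 1.56 ± 0.13 in NS398 and 1.29 ± 0.03 in control arrays (SD over 3 arrays, two-sided exact permutation p = 0.1), while for GAPDH it was 1.10 ± 0.09 in NS398 and 1.03 ± 0.06 in control arrays (exact permutation p = 0.5). The 18S rRNA control signal was 23625, 12397 and 4825 in the NS398 arrays, against 3453, 3783 and 4856 in the control arrays. NS398 replicate 1 thus had the highest 18S signal. The part of these measures in the results was not tested. Array medians of the log2 signal differed by 0.12, NS398 above control (exact permutation p = 0.3), and with each array centred on its median 864 probe sets rose and 1943 fell, in place of 1782 and 1731, while the same 11 of the 19 probe sets of the ATF4 axis passed.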

How the data were processed

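The members, the gene lists and the tests were chosen with earlier results of these data known. RNA of 3 NS398-treated and 3 control HT29 cultures was measured on HG-U133 Plus 2.0 arrays, and groups were taken from the sample titles. The deposited values are linear intensity values, 1 signal per probe set and array. Every array has a trimmed mean of 500 (2% left out at each end), from which a scaling before deposit was inferred. The methods describe gcRMA with quantile normalisation, but the values have neither shared quantiles nor that scale. The affy package is named in the submitters' processing notes (its version is not given in the sources used here). Before the fit log2 was taken without an offset. Probe sets were named by the platform annotation, in which 41097 of 54675 name 1 gene.

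All 54675 probe sets were fitted with limma 3.58.1 (R 4.3.3), treatment as the only term, with eBayes (trend and robust estimation), with Benjamini-Hochberg adjustment and a threshold of 0.05. SAM, which the study names, was not run. A gene was read from its probe set with the highest mean. Ratios of probe sets were compared by exact permutation of the 6 arrays. All probe sets of the 10 genes are reported, and in each list up to 4 called genes with the smallest p and any that went against the list (FOS per array, CEBPA and JDP2 were added after their values were seen). Alternatives were eBayes without trend, median centring, quantile normalisation, an offset of 32, limits of 7 and 4 on the mean log2 signal, array weights, the replicate number as a block, gene means over their probe sets, and leaving out each array. The setting of eBayes without trend also left out robust estimation. The number of arrays limits the precision. Promoters are from RefSeq (GRCh38.p14), where all 10 genes matched. Plots used matplotlib 3.10.9 in Python 3.11.15.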

Additional observations from a re-analysis of the deposited data

How the results depend on the processing

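Of the 10 probe sets that rose, those of ATF4, CEBPB, CEBPG, DDIT3, TRIB3, CHAC1 and the main one of ASNS kept their call under every alternative but eBayes without trend, where CHAC1 alone kept it. That setting called 24 probe sets in all (19 higher, 5 lower) in place of 3513 (1782 higher, 1731 lower), 1 in place of 11 of the ATF4 axis (1 higher, 0 lower) and 1 in place of 64 pathway genes (1 higher, 0 lower, in place of 60 and 4). Its shared prior variance had 1.36 prior degrees of freedom, against a median of 7.07 with the trend and robust estimation. The part of each in the fewer calls was not tested. Median centring gave 864 higher calls over all probe sets and a difference of -0.018 for the brightest ATF5 probe set. With only probe sets of a mean log2 signal above 7, where fewer were tested, 2 probe sets of the axis fell, both of ATF3, in place of 1. Leaving out single arrays gave 1826 to 3984 calls over all probe sets (894 to 2020 higher, 827 to 1964 lower), with 1826, 1896 and 2340 without NS398 replicates 1, 2 and 3 and 1876 without control replicate 3. It gave 9 to 10 calls in the axis (0 to 1 lower), 1 to 4 pathway genes that fell, and -0.33 to 0.16 for the middle ATF3 probe set, where the cause was not tested.

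The replicate numbers of the titles are not known to pair cultures, and same-numbered arrays did not deviate together (r = -0.14, -0.06 and -0.10 across probe sets). With the replicate block 2462 probe sets were called in all and 10 in the axis, without the dim one of ASNS. Noise of dim signals limits what can be said of that probe set and of the dim ones of ATF5, with a mean log2 signal of 5.74 and 4.96. The brightest and second brightest of ATF5 lie at 8.58 and 7.59, and their estimates differ too (0.10 and 0.84).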

Other observations

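The average of the standardised profiles of the 10 genes over the 6 arrays was compared with those of 10658 other genes whose brightest probe set had a mean log2 signal of at least 7. The 5 closest were IFI35 (Pearson's r = 0.998), DUSP5 (0.997), GTF2F1 (0.995), SERPINA4 (0.994) and RHOF (0.993), all over the same 6 arrays and with the average mostly set by the step between the groups. Of these 5, DUSP5, a phosphatase that switches off ERK in the nucleus, had a signal of 1506 in NS398 and 659.9 in control arrays and rose by 1.19 (limma adjusted p = 0.0025), and RHOF rose by 0.84 (adjusted p = 0.0112). The other 3 did not pass, with differences of 0.27 to 0.56. Among the 10 genes themselves r with the average, which contains them, was 0.907 to 0.957 for the 7 that rose, 0.595 for ATF5, -0.42 for PPP1R15A and -0.61 for ATF3.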
